A study of Mus musculus with 12 samples.

Results

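The 40 genes described here are interferon response genes, a set of transcripts that cells switch on when an interferon binds its receptor. They were chosen by name, and each of the 40 was found among the 35896 genes to which the deposited transcripts could be assigned. By role they fall into 4 transcription factors, 5 nucleic acid sensors and their partners, 5 genes of the ISG15 system and of ADP-ribosylation, 12 antiviral effectors, 4 other interferon-induced proteins, 6 interferon-inducible GTPases and 4 genes of antigen processing. They were measured in whole uteri of female wild-type Swiss Webster mice aged 8 to 12 weeks, an outbred stock with no transgene and no treatment in any group. The groups were 4 stages of the estrous cycle with 3 uteri each, namely proestrus (replicates 1, 2 and 3), estrus (3, 4 and 5), metestrus (5, 6 and 7) and diestrus (3, 4 and 5). The labels name triplicate samples and do not say that each uterus came from its own animal, nor how the stage was read, so the p-values below measure the spread between these samples.

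Interferons are secreted proteins that warn neighbouring cells of infection. Type I interferons act through the receptor chains Ifnar1 and Ifnar2 and a complex of factors that includes Stat2 and Irf9 and binds a DNA element called the interferon-stimulated response element (ISRE), while interferon gamma acts through Ifngr1 and Ifngr2 and on a DNA element called the gamma-activated site (GAS). In the female reproductive tract of the mouse, interferon epsilon is a type I interferon known to be made by the epithelium without infection and to be regulated by sex hormones.

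The libraries were 3' TagSeq, in which reads come from the 3' ends of polyadenylated RNA, and held 1652841 to 2200563 estimated counts. Levels are given as CPM, counts scaled to a common library size, in the order of the replicate numbers, and no level is compared between genes. Where a library held 0 counts of a gene, up to 3 counts (1.37 to 1.83 CPM) could have been missed. All 7 uterus markers were tested and present in every library (Esr1 at 203 to 322 CPM, Hoxa10 at 91.6 to 396 CPM). Their sum was lower in estrus (600 to 633 CPM) than in all other uteri (862 to 1142 CPM). Of the 7, 5 were called in the F test over the 4 stages described below, against 23.2% of all genes tested. The 6 stromal fibroblast markers summed to 13099 to 13438 CPM in proestrus and 10118 to 10606 CPM in estrus. In the F test 2 of the 6 were called, against the same 23.2%. The 6 ovary markers summed to 10.1 to 26.5 CPM, of which Star, also a gene of steroid synthesis in other tissues, held 6.41 to 24.0 CPM, while Zp3 was at 0, Amh at or under 0.916 CPM and Inha at or under 5.70 CPM. The 4 adipocyte markers summed to at most 4.57 CPM. Ovgp1, the oviductal glycoprotein, was at 5.44 to 48.9 CPM, and the ciliated cell marker Foxj1 at or under 2.03 CPM. The sum of the oviduct list was 45.8 to 55.7 CPM in estrus and 9.89 to 32.9 CPM in the other stages, and the part of these shifts in the results below was not tested. Because each library is a whole organ, fewer cells of a type and less RNA per cell cannot be told apart.

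Most of the interferon response genes that could be tested were at their highest in estrus. Of the 40, 35 passed the filter on low counts and 5 did not (Dhx58, Isg15, Oas3, Mx1 and Bst2). In edgeR's quasi-likelihood F test over the 4 stages with Benjamini-Hochberg adjustment over all 12052 genes tested, 25 of the 35 had an adjusted p under 0.05, against 23.2% of all genes tested. Each of those 25 had its highest mean log2 CPM in estrus, a combination held by 10.9% of all genes tested. By mean log2 CPM, 33 of the 35 were highest in estrus, Ifi35 in metestrus and Ifi27 in diestrus. By mean CPM the number was 30, with Igtp, Iigp1 and Psmb9 highest in metestrus, each with its highest value in metestrus replicate 7, as well as Ifi35. For 11 of the 35 the 3 estrus uteri lay above all 9 others, against 7.11% of all genes tested, and these were Irf7, Irf9, Zbp1, Parp14, Dtx3l, Oas2, Mx2, Rtp4, Samd9l, Gbp2 and Tap2. The filter requires about 5.38 CPM in 3 samples, and Zbp1, Ifit3, Mx2 and Tap2 reached it only with their estrus samples, so that these 4 were bound to be higher there.

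**Figure D1:**
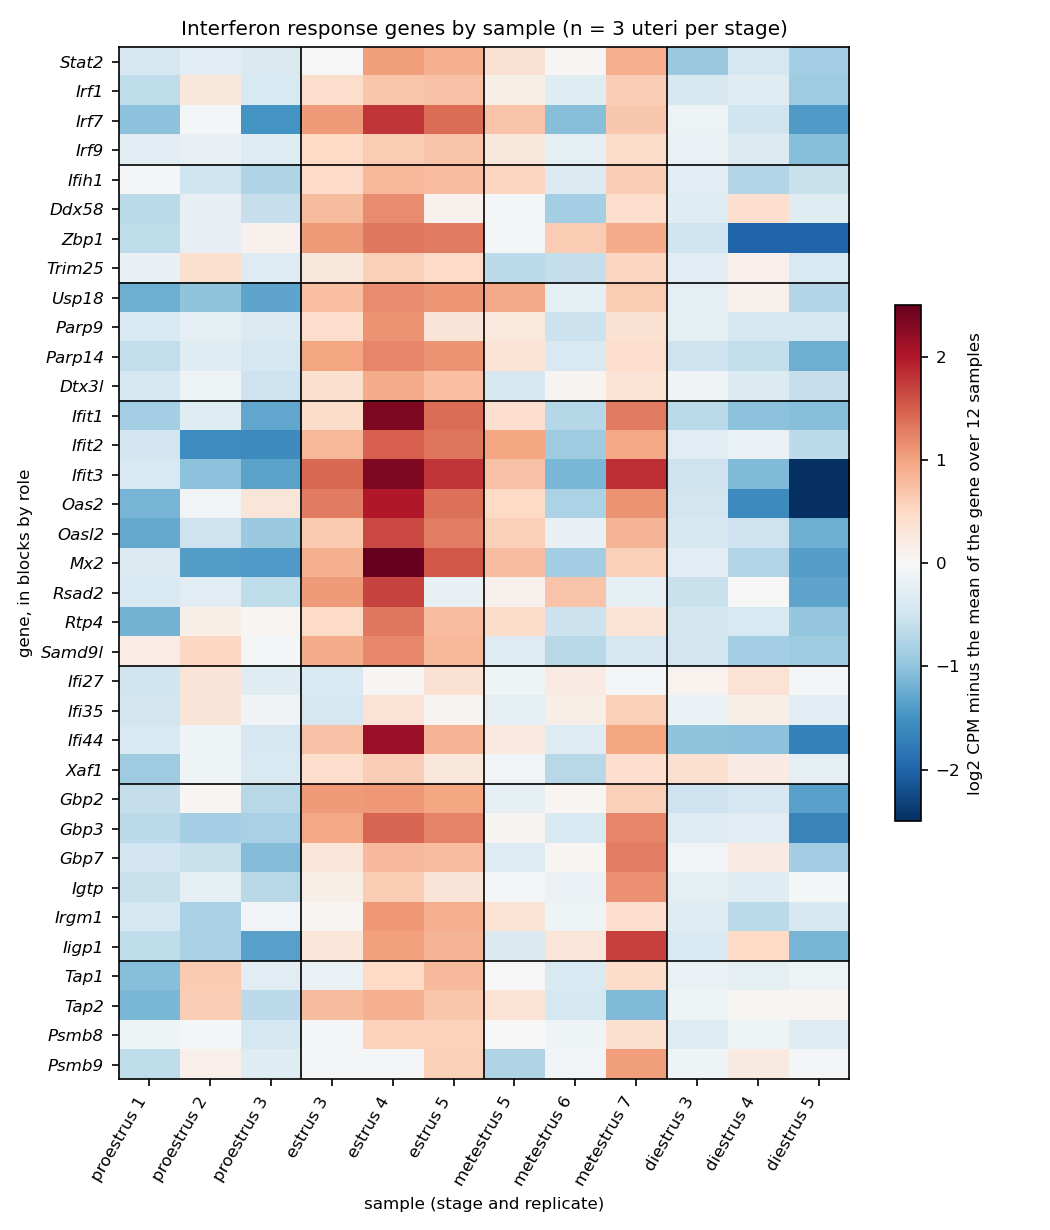
Log2 CPM of each of the 35 tested genes minus its own mean over the 12 uteri, by sample (columns, in order of stage and replicate) and gene (rows, in blocks by role), with colours saturated at 2.5. The estrus columns are red in most rows, metestrus replicate 7 resembles them more than metestrus replicates 5 and 6 do, and the antigen processing genes form the block at the bottom.

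The uteri within a stage differed as well. Averaged over the 35 tested genes, log2 CPM relative to each gene's own mean was 0.54, 1.15 and 0.83 in the 3 estrus uteri and -0.60, -0.24 and -0.61 in the 3 proestrus uteri. It was 0.16, -0.31 and 0.64 in metestrus and -0.32, -0.36 and -0.89 in diestrus. Metestrus replicate 7 therefore lay above estrus replicate 3, and the metestrus uteri spanned more of the scale than those of any other stage. These averages include Zbp1, Ifit3, Mx2 and Tap2, which the filter on low counts bound to be higher in estrus. Estrus replicate 4 gave the highest of the 12 values for 26 of the 35 genes, metestrus replicate 7 for 5 and estrus replicate 5 for 4. The lowest value fell in diestrus replicate 5 for 11 genes, in proestrus replicate 3 for 10 and in proestrus replicate 1 for 7.

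Promoter sequence was examined as a description of genes that had been chosen by name as interferon response genes. Any link between the matches and the levels over the stages was not tested. RefSeq promoter windows on GRCm38.p6, each with 250 bases before the transcript start and 50 from it on, were at hand for 28 of the 40 genes (32 windows, some genes having more than 1 start). The core of the ISRE was searched on both strands as GAAA, then any 2 bases, then GAAA, and the GAS as TTCNNNGAA. An ISRE core was found in 14 of the 28 genes and in 43.8% of their 32 windows, and in 3.44% of all 32851 windows of the same length. A GAS was found in 7 of the 28 genes and in 21.9% of their windows, and in 8.30% of all windows. The genes with an ISRE core were Stat2, Ifih1, Ddx58, Isg15, Ifit1, Ifit3, Oas3, Rsad2, Bst2, Gbp2, Gbp3, Gbp7, Igtp and Irgm1, and those with a GAS were Irf1, Ifit2, Bst2, Ifi35, Gbp7, Igtp and Psmb8. In Bst2 alone an ISRE core and a GAS overlapped. A match is a description of letters, not of a bound site, and a missing match says only that these letters are not in the window.

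The windows of 7 genes are shown because they cover the forms the matches take: 2 cores apart (Ifit1, Ifit3), 1 core (Gbp2), cores that run into each other (Gbp3, Irgm1, Isg15) and no core (Samd9l, the gene with the smallest F test p). Each reads 5′ to 3′ in the direction of the gene, with capitals marking the ISRE cores on either strand.
Ifit1 (chr19:34640639-34640938, plus strand): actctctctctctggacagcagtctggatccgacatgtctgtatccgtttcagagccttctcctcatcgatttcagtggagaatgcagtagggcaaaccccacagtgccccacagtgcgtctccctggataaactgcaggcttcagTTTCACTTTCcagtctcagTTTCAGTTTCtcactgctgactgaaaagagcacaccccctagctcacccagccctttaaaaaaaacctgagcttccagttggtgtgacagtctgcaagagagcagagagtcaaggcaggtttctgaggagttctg
Ifit3 (chr19:34583279-34583578, plus strand): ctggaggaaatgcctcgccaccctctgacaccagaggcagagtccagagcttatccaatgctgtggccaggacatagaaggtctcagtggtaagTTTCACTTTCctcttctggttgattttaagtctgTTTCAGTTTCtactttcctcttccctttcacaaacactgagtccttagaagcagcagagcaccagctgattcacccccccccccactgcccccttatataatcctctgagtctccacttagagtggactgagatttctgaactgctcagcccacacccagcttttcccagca
Gbp2 (chr3:142620413-142620712, plus strand): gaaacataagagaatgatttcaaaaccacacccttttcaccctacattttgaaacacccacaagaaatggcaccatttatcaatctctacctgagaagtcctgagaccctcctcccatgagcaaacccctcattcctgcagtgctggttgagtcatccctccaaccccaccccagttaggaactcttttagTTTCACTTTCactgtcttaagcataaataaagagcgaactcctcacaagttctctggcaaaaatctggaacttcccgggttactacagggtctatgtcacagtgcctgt
Gbp3 (chr3:142559794-142560093, plus strand): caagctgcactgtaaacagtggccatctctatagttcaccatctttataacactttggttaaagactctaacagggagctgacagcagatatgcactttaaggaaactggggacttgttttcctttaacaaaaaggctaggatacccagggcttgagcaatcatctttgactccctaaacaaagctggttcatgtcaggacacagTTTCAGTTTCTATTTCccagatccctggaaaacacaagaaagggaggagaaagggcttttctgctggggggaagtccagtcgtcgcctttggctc
Irgm1 (chr11:48871371-48871670, minus strand): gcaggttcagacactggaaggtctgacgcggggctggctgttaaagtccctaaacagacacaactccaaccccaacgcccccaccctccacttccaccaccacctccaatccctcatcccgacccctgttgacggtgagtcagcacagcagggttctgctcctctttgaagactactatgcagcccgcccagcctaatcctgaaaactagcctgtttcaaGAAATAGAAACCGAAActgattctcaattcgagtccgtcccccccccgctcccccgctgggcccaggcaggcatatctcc
Isg15 (chr4:156200769-156201068, minus strand): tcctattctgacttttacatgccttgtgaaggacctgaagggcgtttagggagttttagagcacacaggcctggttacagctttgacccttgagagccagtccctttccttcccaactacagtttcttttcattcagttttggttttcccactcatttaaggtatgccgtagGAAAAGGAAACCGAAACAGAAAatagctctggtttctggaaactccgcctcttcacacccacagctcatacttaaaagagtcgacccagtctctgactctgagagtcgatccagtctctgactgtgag
Samd9l (chr6:3399522-3399821, minus strand): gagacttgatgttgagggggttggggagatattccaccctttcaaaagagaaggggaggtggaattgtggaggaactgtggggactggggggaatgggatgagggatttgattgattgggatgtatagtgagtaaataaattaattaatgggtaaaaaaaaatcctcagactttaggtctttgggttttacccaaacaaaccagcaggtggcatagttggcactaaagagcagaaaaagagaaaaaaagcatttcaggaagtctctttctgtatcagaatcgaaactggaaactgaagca
Counted from 0 at the transcript start, the cores of Ifit1 began at -104 and -85 and those of Ifit3 at -156 and -122, all read on the opposite strand. The core of Gbp2 began at -59 and those of Gbp3 at -45 and -39, again on the opposite strand. The cores of Irgm1 began at -30 and -24 and the 3 of Isg15 at -78, -72 and -66, on the strand shown. Overlapping cores stand out as 1 longer run of capitals.

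**Figure D2:**
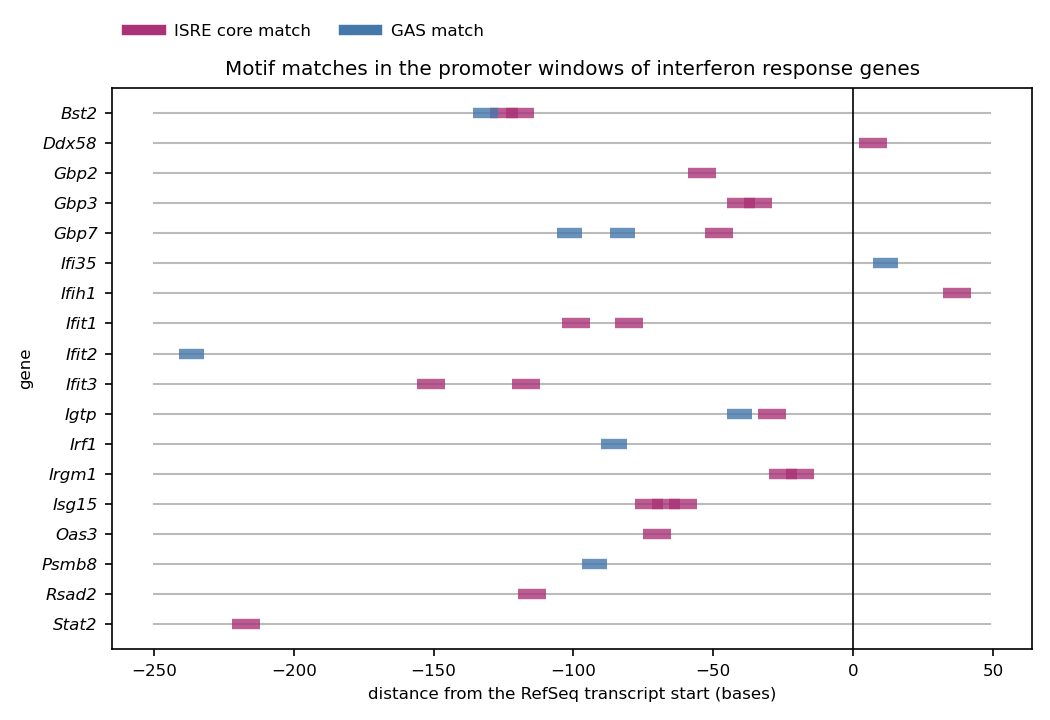
Positions of ISRE core matches (magenta) and GAS matches (blue) along the promoter windows of the 18 genes that had either (rows), as distance in bases from the RefSeq transcript start, with the vertical line at the start. The ISRE cores lie at varied distances, from -222 in Stat2 to 32 in Ifih1, and those of Gbp2, Gbp3 and Gbp7 begin between -59 and -39.

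All 4 transcription factors were higher in estrus than in proestrus and lower in diestrus than in estrus, against 9.67% and 13.0% of all genes tested. Irf7, the factor that amplifies type I interferon production, was at 13.7, 28 and 9.64 CPM in proestrus, 61.9, 103 and 77.9 in estrus, 48.2, 13.3 and 47.1 in metestrus and 26.4, 20.3 and 10.2 in diestrus. Its 3 estrus uteri lay above all others, and metestrus replicate 6 lay with proestrus and diestrus. The estrus level was 4.72-fold that of proestrus (log2 fold change 2.24 ± 0.45 SE, n = 3 against 3, edgeR adjusted p = 0.00512), and the diestrus level was 4.22-fold lower than that of estrus (-2.08 ± 0.44, edgeR adjusted p = 0.00467). Irf9, the DNA-binding partner of Stat2, ran from 23.3 to 25.9 CPM in proestrus, 42.1 to 49.5 in estrus, 25.2 to 41.1 in metestrus and 13.6 to 26.4 in diestrus. Stat2 ran from 12.5 to 14.0 CPM in proestrus, 17.3 to 36.6 in estrus, 17.7 to 33.4 in metestrus and 8.48 to 12.4 in diestrus, so that estrus and metestrus overlapped. Irf1, a factor induced by interferon gamma, ran from 17.7 to 34.5 CPM in proestrus, 38.4 to 47.6 in estrus, 22.7 to 43.5 in metestrus and 14.7 to 22.7 in diestrus. Its F test adjusted p was 0.0259, and the call was lost without estrus replicate 4, estrus replicate 5, diestrus replicate 3 or diestrus replicate 5. Irf7 overlaps Phrf1 on the opposite strand and Irf9 overlaps Rnf31 on the same strand, and the use of strand in counting is not given in the sources used here, so both levels carry that uncertainty.

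Of the sensors of foreign nucleic acid, Ifih1 (MDA5, a sensor of long double-stranded RNA) and Zbp1 (a sensor of Z-form nucleic acid) differed over the stages, with adjusted p of 0.00867 and 0.0116 in edgeR's F test. These were 2 of the 4 tested sensors and partners, against 23.2% of all genes tested. Ifih1 ran from 11.2 to 18.8 CPM in proestrus, 27.8 to 35.5 in estrus, 15.1 to 30.4 in metestrus and 11.4 to 16.0 in diestrus. Zbp1 was at 8.04 to 9.72 CPM in estrus and 1.71 to 3.55 CPM in proestrus, and in diestrus it was at 1.99 CPM in replicate 3 and 0 in replicates 4 and 5. Its difference between estrus and proestrus missed the threshold (log2 fold change 1.75 ± 0.59 SE, edgeR adjusted p = 0.0561), while that between diestrus and estrus passed it (-3.61 ± 0.72, edgeR adjusted p = 0.00322). With 2 diestrus libraries at 0, the size of that difference depended on the third: it was -7.07 without diestrus replicate 3 and -3.02 without diestrus replicate 4, and is no measure of the true fold. Ddx58 (RIG-I, a sensor of uncapped RNA ends) was called between estrus and proestrus only (24.3 to 52.6 against 13.7 to 19.4 CPM, edgeR adjusted p = 0.0255), and its F test gave 0.0637. Trim25, a ubiquitin ligase that acts on RIG-I, passed no test, with 43.3 to 54.3 CPM in estrus and 22.3 to 51.9 CPM in the other stages. Dhx58 (LGP2) was not tested and held 6 to 20 counts in estrus and 0 to 11 counts in the other libraries.

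In the group of ISG15 and ADP-ribosylation genes, all 4 tested members differed over the stages, against 23.2% of all genes tested. Of these, Parp14 (chr16:35832874-35871544), Dtx3l (chr16:35926511-35939151) and Parp9 (chr16:35938470-35972605) are neighbours on GRCm38. Parp14, an ADP-ribosyltransferase, was at 24.0, 29.6 and 26.9 CPM in proestrus, 74.2, 88.1 and 82.0 in estrus, 47.2, 28.4 and 50.7 in metestrus and 25.4, 23.7 and 15.3 in diestrus. No other uterus reached the lowest estrus value, and the differences were 3.03-fold between estrus and proestrus (log2 1.60 ± 0.22 SE, edgeR adjusted p = 0.000597) and 3.76-fold between diestrus and estrus (-1.91 ± 0.22, edgeR adjusted p = 8.51e-05). Usp18, the protease that removes ISG15 from proteins and restrains signalling at the type I receptor, was at 1.71, 2.16 and 1.52 CPM in proestrus, 9.90, 13.7 and 12.8 in estrus, 11.4, 4.42 and 8.94 in metestrus and 4.49, 5.93 and 2.83 in diestrus. All 9 uteri of the other stages lay above the 3 of proestrus, and metestrus replicate 5 lay within the estrus range. The proestrus libraries held 3 to 4 counts of Usp18, so its fold changes over proestrus rest on values near the limit of 3 counts. Estrus was 6.58-fold above proestrus (2.72 ± 0.46, edgeR adjusted p = 0.00196) and diestrus 2.71-fold below estrus (-1.44 ± 0.39, edgeR adjusted p = 0.0182), the latter lost without estrus replicate 4, estrus replicate 5, diestrus replicate 3 or diestrus replicate 5. Dtx3l, a ubiquitin ligase that works in a complex with Parp9, was at 26.8, 33.4 and 25.4 CPM in proestrus, 48.9, 70.4 and 62.3 in estrus, 27.5, 38.5 and 47.1 in metestrus and 34.4, 28.7 and 24.3 in diestrus, again with estrus above all others (2.12-fold over proestrus, 1.09 ± 0.22, edgeR adjusted p = 0.00492). Parp9 ran from 24.5 to 27.0 CPM in proestrus, 40.8 to 71.5 in estrus, 22.1 to 42.3 in metestrus and 24.2 to 27.4 in diestrus, and its F test call (adjusted p = 0.0170) was lost without estrus replicate 4. Parp9 and Dtx3l overlap on opposite strands and share 8.56% and 9.59% of their 31-base words with other genes, most with each other, so their counts are not independent. Isg15 itself, the ubiquitin-like protein of the system, was barely detected, with 3 to 5 counts in estrus and 0 to 4 in the other libraries.

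The antiviral effectors held the largest median log2 fold changes of the 7 groups (2.21 from proestrus to estrus and -1.98 from estrus to diestrus). Each of the 9 tested members differed in the F test, between estrus and proestrus and between diestrus and estrus. The shares of all genes tested were 23.2%, 9.67% (higher in estrus) and 13.0% (lower in diestrus). The medians and the calls both include Ifit3 and Mx2, which reached the filter level only with their estrus samples and were bound to be higher there. Samd9l, a restriction factor for viruses, was at 59.9, 75.5 and 50.7 CPM in proestrus, 101.5, 122 and 93.9 in estrus, 42.0, 32.2 and 38.8 in metestrus and 37.9, 28.7 and 27.7 in diestrus (F test adjusted p = 0.000107). In proestrus its 3 uteri also lay above all 6 of metestrus and diestrus. The estrus level was 1.71-fold that of proestrus (0.77 ± 0.18, edgeR adjusted p = 0.0104, a call lost without proestrus replicate 3 or estrus replicate 4) and the diestrus level 3.36-fold below estrus (-1.75 ± 0.19, edgeR adjusted p = 5.2e-05). Oasl2, an oligoadenylate synthetase-like protein, was at 9.70, 17.3 and 12.7 CPM in proestrus, 40.2, 81.8 and 62.7 in estrus, 38.4, 22.1 and 46.5 in metestrus and 18.9, 17.3 and 10.2 in diestrus. Its estrus uteri lay above all of proestrus and diestrus, and metestrus replicate 7 lay within the estrus range. The fold changes were 4.64 between estrus and proestrus (2.21 ± 0.34, edgeR adjusted p = 0.00115) and 3.95, downwards, between estrus and diestrus (-1.98 ± 0.33, edgeR adjusted p = 0.00092).

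The Ifit proteins bind viral RNA that lacks the cap methylation of the host. On GRCm38 their genes lie in a cluster, Ifit2 at chr19:34550694-34576419, Ifit3 at chr19:34583531-34588731 and Ifit1 at chr19:34640871-34650009. Ifit1bl1 and Ifit3b lie between Ifit3 and Ifit1. Ifit1, whose 2 ISRE cores are shown above, was at 7.42, 11.3 and 5.07 CPM in proestrus, 19.8, 75.5 and 38.9 in estrus, 19.2, 8.21 and 36.4 in metestrus and 8.48, 6.43 and 6.23 in diestrus. Estrus replicate 4 stood well above estrus replicates 3 and 5, the stage mean was 44.7 ± 28.3 CPM (SD, n = 3), and the estrus and metestrus uteri overlapped. Even so, estrus was 5.63-fold above proestrus (2.49 ± 0.53, edgeR adjusted p = 0.00675) and diestrus 6.29-fold below estrus (-2.65 ± 0.54, edgeR adjusted p = 0.00334). Ifit3 was at 3.99, 2.16 and 1.52 CPM in proestrus, 16.7, 32.0 and 21.5 in estrus, 9.85, 1.89 and 22.7 in metestrus and 3.49, 1.98 and 0 in diestrus. Here too the estrus uteri lay above all of proestrus and diestrus (9.08-fold over proestrus, 3.18 ± 0.72, edgeR adjusted p = 0.00955, a call lost without proestrus replicate 3). Ifit3 shares 61.8% of its 31-base words with other genes, most with Ifit3b, so the division of reads between the pair is uncertain. Ifit1 shares 10.4% with other transcripts, most with Ifit1bl2. Ifit2 ran from 1.52 to 4.56 CPM in proestrus, 13.0 to 21.2 in estrus, 3.16 to 14.5 in metestrus and 3.96 to 5.93 in diestrus (6.85-fold between estrus and proestrus, edgeR adjusted p = 0.00428). The proestrus libraries held 3 to 7 counts of Ifit3 and 3 to 8 of Ifit2. The fold changes of both over proestrus thus rest on values near the limit of 3 counts.

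Mx2, a gene of the dynamin-like GTPases, is annotated in GENCODE M21 as a polymorphic pseudogene. It was at 2.28, 0.539 and 0.507 CPM in proestrus and 6.80, 24.6 and 11.4 in estrus. In metestrus it was at 6.22, 1.26 and 5.37 CPM and in diestrus at 2.49, 1.48 and 0.566 CPM. Estrus lay above all others, and the log2 fold changes of 3.64 ± 0.73 over proestrus (edgeR adjusted p = 0.00492) and -3.15 ± 0.68 from estrus to diestrus (edgeR adjusted p = 0.005) rest on proestrus and diestrus libraries that lie mostly at or under the level of 3 counts. The other tested effectors were Oas2 (an oligoadenylate synthetase), Rsad2 (viperin, which makes a chain-terminating nucleotide) and Rtp4. Oas2 ran from 14.2 to 24.0 CPM in estrus and 0 to 12.5 CPM in the other stages. Rtp4 ran from 42.1 to 76.1 CPM in estrus and 12.5 to 41.5 CPM in the other stages. Rsad2 was at 22.3, 34.9 and 8.70 CPM in estrus and 3.40 to 17.0 CPM in the other stages, so that estrus replicate 5 lay within the range of the rest. Their F test calls depended on single libraries: that of Oas2 was lost without estrus replicate 4, that of Rtp4 without estrus replicate 4, estrus replicate 5 or diestrus replicate 5, and that of Rsad2 without any 1 of 7 libraries (proestrus replicates 1, 2 and 3, estrus replicates 3 and 4, diestrus replicates 3 and 5).

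Of the effectors that were not tested, Oas3 held 8, 32 and 32 counts in the estrus uteri and 0 to 8 counts in the 9 others, so that estrus replicate 3 was level with metestrus replicates 5 and 7 in counts. Mx1 held 6, 23 and 4 counts in estrus, 5 to 7 in proestrus, 1 to 4 in metestrus and 0 in each diestrus uterus. Bst2 (tetherin, which holds budding virus at the cell surface) held 22 counts in diestrus replicate 3 and 0 to 3 counts in each of the other 11 libraries, so that no direction between stages can be read for it.

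**Figure D3:**
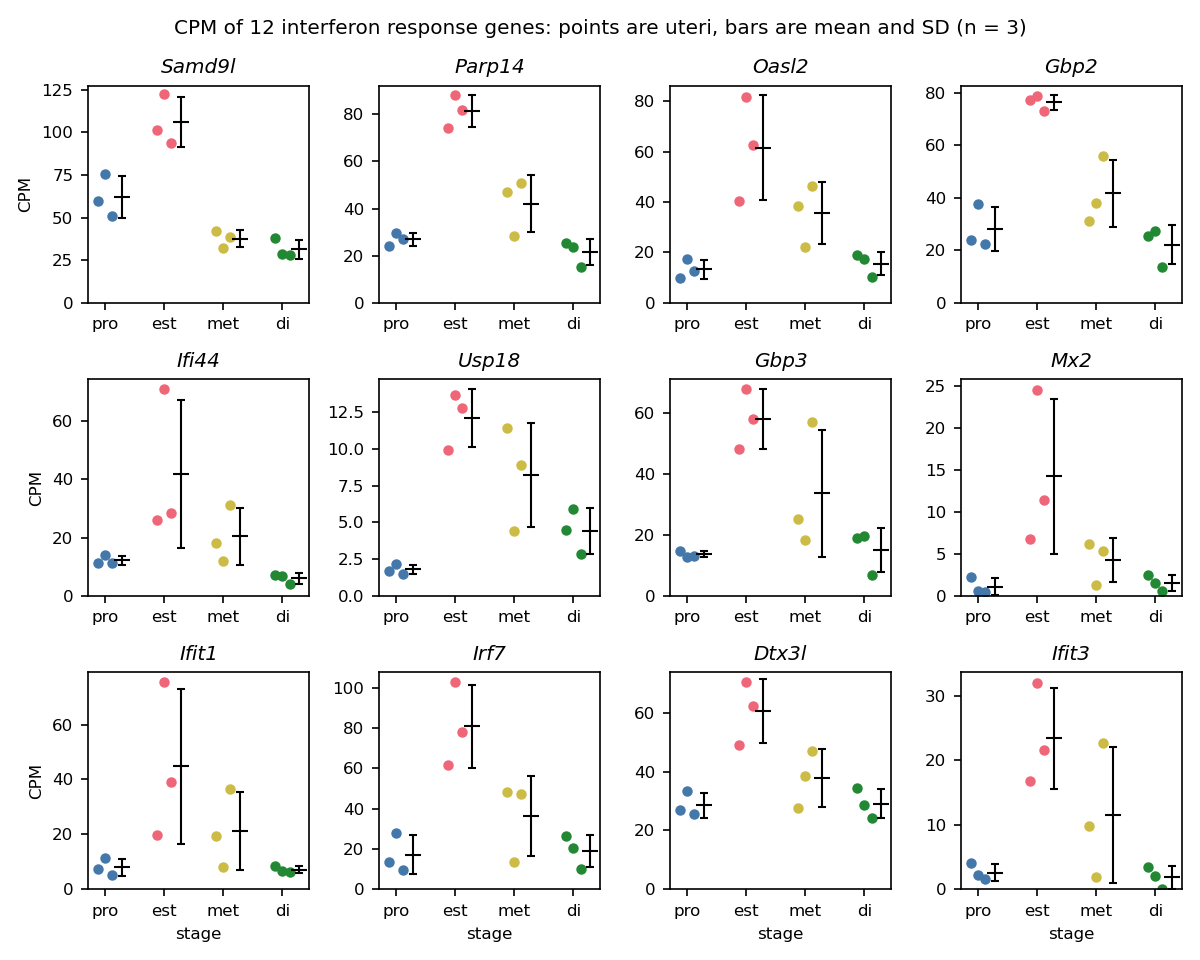
CPM of the 12 genes with the smallest F test p, 1 panel each on its own linear axis from 0, with points for single uteri by stage and bars for the mean and SD of 3. In Samd9l, Parp14, Gbp2, Mx2, Irf7 and Dtx3l the 3 estrus points lie above all others, and in Ifi44, Ifit1 and Mx2 a single estrus point (replicate 4) lies far above the other 2.

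Of the 4 other interferon-induced proteins, only 1, Ifi44, differed over the stages, against 23.2% of all genes tested. Ifi44 was at 11.4, 14.0 and 11.2 CPM in proestrus, 26.0, 70.9 and 28.4 in estrus, 18.2, 12.0 and 31 in metestrus and 6.98, 6.92 and 3.96 in diestrus. Diestrus lay below all 9 other uteri, and metestrus replicate 7 lay above 2 of the 3 estrus uteri. The difference was 3.40-fold between estrus and proestrus (1.77 ± 0.41, edgeR adjusted p = 0.0107, lost without estrus replicate 4) and 6.86-fold between diestrus and estrus (-2.78 ± 0.45, edgeR adjusted p = 0.000815). Xaf1, a promoter of apoptosis that binds XIAP, was called between estrus and proestrus only (64.1 to 80.6 against 28 to 48.5 CPM, edgeR adjusted p = 0.0343), and diestrus, at 44.7 to 69.8 CPM, overlapped estrus. Ifi27 and Ifi35 passed no test: Ifi27 ran from 53.6 to 99.8 CPM over the 12 uteri with an F test adjusted p of 0.780, and Ifi35 from 22.2 to 47.1 CPM with 0.776.

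The interferon-inducible GTPases, which attack the vacuoles of intracellular parasites and bacteria, were higher in estrus than in proestrus for 5 of 6 members. The share of all genes tested was 9.67%. Gbp7 (chr3:142530342-142550149), Gbp3 (chr3:142560026-142573209) and Gbp2 (chr3:142620602-142638008) share a cluster on GRCm38. Gbp2, a guanylate-binding protein with 1 ISRE core in the window above, was at 24.0, 37.7 and 22.3 CPM in proestrus, 77.3, 78.9 and 73.3 in estrus, 31.1, 37.9 and 56.0 in metestrus and 25.4, 27.2 and 13.6 in diestrus. Its estrus uteri lay close together at 76.5 ± 2.91 CPM (SD, n = 3) and above all others (2.73-fold over proestrus, 1.45 ± 0.26, edgeR adjusted p = 0.00321, and 3.43-fold over diestrus, edgeR adjusted p = 0.000538). Gbp3 was at 14.8, 12.9 and 13.2 CPM in proestrus, 48.3, 68.1 and 58.2 in estrus, 25.4, 18.3 and 57.2 in metestrus and 18.9, 19.8 and 6.79 in diestrus. Metestrus replicate 7 lay within the estrus range of Gbp3, while estrus and proestrus were 4.25-fold apart (2.09 ± 0.39, edgeR adjusted p = 0.00374). Irgm1, an immunity-related GTPase, ran from 15.6 to 26.9 CPM in proestrus, 29.1 to 60.6 in estrus, 25.9 to 38.2 in metestrus and 17.3 to 22.4 in diestrus (F test adjusted p = 0.0101, lost without estrus replicate 4 or estrus replicate 5).

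Gbp7 and Iigp1 had their highest values outside estrus. Gbp7 was at 92.2, 132 and 128 CPM in estrus and at 59.1, 77.0 and 182 CPM in metestrus, and Iigp1 at 74.2, 123 and 109 CPM in estrus and at 46.2, 74.5 and 199 CPM in metestrus, replicate 7 being the high one in both. Their F test adjusted p of 0.0466 and 0.0441 were each lost when any 1 of 8 libraries was left out (proestrus replicates 1, 2 and 3, estrus replicates 3, 4 and 5, diestrus replicates 3 and 5). Igtp, with 17.3 to 24.6 CPM in estrus and 35.8 CPM in metestrus replicate 7, passed no test. Summed over the 6 GTPases, metestrus replicate 7 held 568 CPM, above estrus replicates 3, 4 and 5 with 338, 487 and 442 CPM, and with library totals in place of TMM scaling it was still the highest (512 against 489 CPM in estrus replicate 4). The same uterus held 119 CPM of the 14 T and NK cell markers, against 18.3 to 53.2 CPM in the 11 others, including Nkg7 at 24.4 CPM and Klrk1 at 22.1 CPM. Of those 14 markers 5 passed the filter and 0 were called in the F test (1 at an unadjusted p under 0.05), against 23.2% of all genes tested. Their part in the GTPase values was not tested. Gbp7 shares 14.7% and Igtp 15.9% of their 31-base words with other genes, Igtp most with Irgm2, which it overlaps.

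Of the 4 antigen processing genes, 0 were called in edgeR's F test, against 23.2% of all genes tested, with 1 at an unadjusted p under 0.05, and 0 were called between estrus and proestrus, again with 1 at an unadjusted p under 0.05. Psmb8, a subunit of the immunoproteasome, ran from 46.4 to 72.1 CPM in estrus, 35.0 to 46.9 in proestrus, 44.2 to 63.8 in metestrus and 37.9 to 44.0 in diestrus. Its difference between diestrus and estrus passed the threshold (1.59-fold lower, -0.67 ± 0.20, edgeR adjusted p = 0.0265) and was lost without estrus replicate 4, estrus replicate 5, diestrus replicate 3 or diestrus replicate 5. Psmb9 ran from 8.30 to 31.6 CPM, and Tap1, a subunit of the peptide transporter, from 5.13 to 21.5 CPM, both with overlapping stages. Tap2, its partner, was at 6.87 to 8.01 CPM in estrus and 1.14 to 6.47 CPM elsewhere, with an F test adjusted p of 0.230.

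The step from proestrus to estrus held the most calls. Of the 35 tested genes, 26 were higher in estrus, against 9.67% of all genes tested, and 0 were lower, against 7.46%. The 26 include Ifit3 and Mx2, which the filter on low counts bound to be higher in estrus. Zbp1 and Tap2, among the 35 and not called, were bound in the same way. The fold change was above 1 for all 35, from 0.09 (Ifi35) to 3.64 (Mx2) on the log2 scale, with a median of 1.19 against 0.02 over all genes tested. The number of calls depended on single libraries: it was 12 without estrus replicate 4, 13 without proestrus replicate 3, 16 without proestrus replicate 1 and 18 without estrus replicate 5, and 23 to 29 without any 1 of the others, while the share of all genes called in either direction fell from 17.1% to 9.83%, 8.90%, 9.87% and 10%. The 10 genes called in every one of these 12 fits were Irf7, Usp18, Parp14, Dtx3l, Ifit1, Ifit2, Oasl2, Mx2, Gbp2 and Gbp3. The 16 others lost the call without at least 1 library, and among them Stat2, Irf1, Irf9, Ddx58, Parp9, Oas2, Rsad2, Rtp4, Xaf1, Gbp7 and Iigp1 lost it without proestrus replicate 1, proestrus replicate 3 or estrus replicate 4 alike.

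From estrus to diestrus the direction was the reverse. Of the 35, 24 were lower in diestrus, against 13.0% of all genes tested, and 0 were higher, against 9.72%. The 24 include Zbp1, Ifit3 and Mx2, which the filter on low counts bound to be higher in estrus. Tap2, among the 35 and not called, was bound in the same way. The median log2 fold change was -1.27 against 0 over all genes tested, and Ifi27 was the 1 gene with a higher mean in diestrus. Leaving out single libraries gave 19 (without estrus replicate 4) to 27 calls, and 19 of the 24 were called in every such fit, the exceptions being Usp18, Parp9, Ifit2, Rsad2 and Psmb8. In both comparisons, single libraries moved the size of a few called differences by more than 1.5 times without turning any direction. Without estrus replicate 4 the log2 fold change between estrus and proestrus was 1.87 for Ifit1, 2.98 for Mx2 and 1.12 for Ifi44, and that between diestrus and estrus was -2.02 for Ifit1, -2.49 for Mx2 and -2.13 for Ifi44. Without proestrus replicate 1 the first was 3.44 for Ifit2 and 4.60 for Mx2, and without diestrus replicate 3 the second was -4.39 for Ifit3 and -4.91 for Oas2. This comparison and the previous one use the same 3 estrus uteri, so their values stand side by side and are not independent. The 2 log2 fold changes of a gene add up to its change from proestrus to diestrus. That comparison is given below and was called for Samd9l alone, whose 2 values were 0.77 ± 0.18 and -1.75 ± 0.19 (log2 ± SE).

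**Figure D4:**
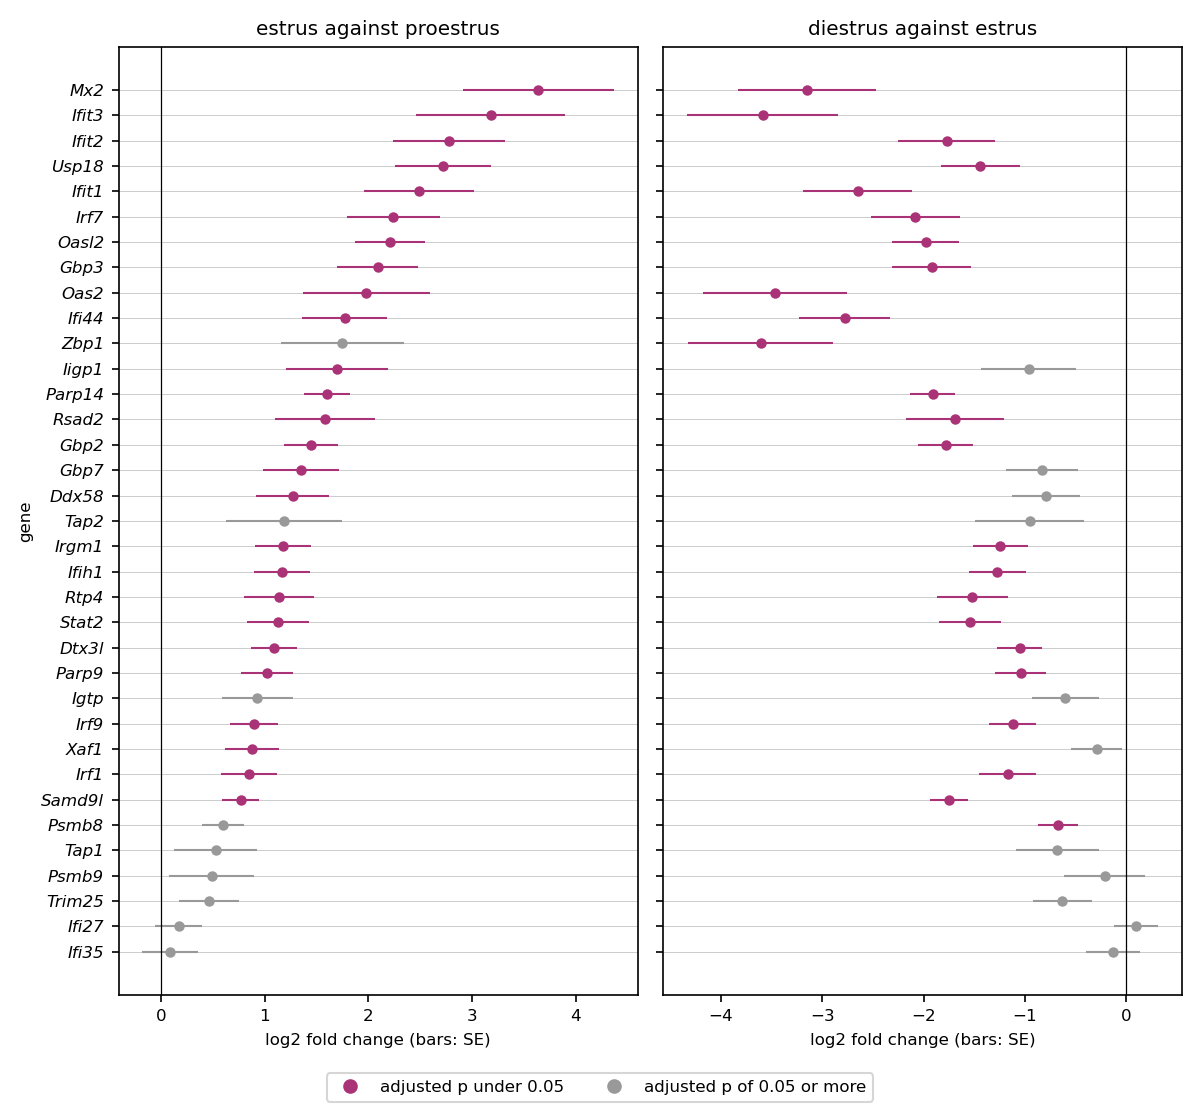
Log2 fold changes of the 35 tested genes between estrus and proestrus (left) and between diestrus and estrus (right), 1 row per gene in the order of the left panel, with bars for the standard error and magenta for an edgeR adjusted p under 0.05. All points of the left panel lie right of 0, from 0.09 to 3.64, and all of the right panel except Ifi27 lie left of it.

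Metestrus lay between estrus and diestrus, and few genes could be separated from its neighbours. From estrus to metestrus 2 of 35 genes fell, against 4.73% of all genes tested, and 0 rose, against 2.83%. These were Samd9l (2.80-fold, -1.49 ± 0.19, edgeR adjusted p = 0.000523) and Parp14 (1.93-fold, -0.95 ± 0.21, edgeR adjusted p = 0.0176), the latter lost without estrus replicate 4, estrus replicate 5 or metestrus replicate 6. The median was -0.69 against 0.01 over all genes tested, and 14 genes had an unadjusted p under 0.05. Without metestrus replicate 7 the calls were 6, with Gbp2, Gbp3, Dtx3l and Trim25 added, and without estrus replicate 4, estrus replicate 5 or metestrus replicate 6 Samd9l alone was left. From metestrus to diestrus 0 genes were called lower and 0 higher by edgeR, against 0.0913% and 0.133% of all genes tested, with a median of -0.76 against -0.02. There 15 genes had an unadjusted p under 0.05, and DESeq2 called 3 (Stat2, Parp14 and Ifi44). Without metestrus replicate 6, edgeR called 5 (Stat2, Ifih1, Parp14, Ifit3 and Oasl2), each lower in diestrus.

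Between metestrus and proestrus 2 genes were higher in metestrus, against 2.49% of all genes tested, and 1 was lower, against 1.82%. Usp18 was 4.52-fold higher (2.18 ± 0.47, edgeR adjusted p = 0.0228), Oasl2 2.69-fold higher (1.43 ± 0.35, edgeR adjusted p = 0.0363) and Samd9l 1.64-fold lower (-0.71 ± 0.19, edgeR adjusted p = 0.0489). The fold of Usp18 rests on 3 to 4 counts in each proestrus library. With library totals or DESeq2's size factors as the scaling, 2 were higher and 0 lower, because Samd9l passed the threshold no longer. None of the 3 calls held in every fit without 1 library: Usp18 lost it without 5 (proestrus replicates 1, 2 and 3, metestrus replicates 5 and 7), Oasl2 also without estrus replicate 5, and Samd9l without each library except metestrus replicate 5. The number of calls was 12 without metestrus replicate 6 and 0 without metestrus replicate 7 or any 1 proestrus uterus, and 16 genes had an unadjusted p under 0.05 with all libraries.

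Proestrus and diestrus, the stages with the lowest levels, differed in a single gene. Samd9l was 1.97-fold higher in proestrus (0.98 ± 0.19, edgeR adjusted p = 0.00619) and kept that call without each library in turn, so 1 of 35 was higher, against 4.62% of all genes tested, and 0 were lower, against 3.91%. Usp18, at 1.52 to 2.16 CPM in proestrus and 2.83 to 5.93 CPM in diestrus without overlap, did not pass (-1.28 ± 0.50, edgeR adjusted p = 0.147). Without diestrus replicate 3, Zbp1 was called as well, making 2. The median over the 35 was 0.06, and 4 had an unadjusted p under 0.05.

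The interferons themselves were at the edge of detection, and 0 of 11 ligand genes could be tested. Ifne, the epithelial interferon epsilon, held a count in 6 libraries (the 3 of proestrus, estrus replicates 4 and 5 and metestrus replicate 5) and never more than 0.916 CPM. Ifng, the type II interferon, held a count in 4 libraries at up to 1.04 CPM, and Ifnz in 2 at up to 0.619 CPM. The remaining 8 (Ifna1, Ifna2, Ifna4, Ifna5, Ifnb1, Ifnk, Ifnl2 and Ifnl3) were at 0 in all 12 libraries, for which the limit given above of 1.37 to 1.83 CPM holds.

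Receptor transcripts were detected throughout, and 3 of 5 tested differed over the stages, against the 23.2% of all genes. Ifngr2, the signalling chain of the interferon gamma receptor, was at 66.7, 73.9 and 55.8 CPM in proestrus, 104, 102 and 99.4 in estrus, 59.6, 45.4 and 42.9 in metestrus and 34.9, 37.6 and 37.4 in diestrus (F test adjusted p = 0.000133). Its estrus uteri lay above all others and its diestrus uteri below all others. Ifngr1, the ligand-binding chain, ran from 52.6 to 87.9 CPM in estrus and 32.4 to 34.6 CPM in diestrus (F test adjusted p = 0.0213). Ifnar2 ran from 21.6 to 31 CPM in proestrus, 35.3 to 45.8 in estrus, 36.0 to 57.8 in metestrus and 28.3 to 34.1 in diestrus (0.0417), with metestrus the highest. Ifnar1, at 22.9 to 30.9 CPM in estrus and 11.7 to 15.4 CPM in proestrus, did not pass the F test (0.101) but passed between estrus and proestrus (0.90 ± 0.26, edgeR adjusted p = 0.0319). Il10rb, the shared chain of the interferon lambda receptor, ran from 11.9 to 35.5 CPM (F test adjusted p = 0.139) and was lower in diestrus than in estrus (-0.76 ± 0.25, edgeR adjusted p = 0.0387), and Ifnlr1, its specific chain, stayed at or under 2.86 CPM and was not tested. Ifnar2 and Il10rb both overlap Gm21970 on the same strand (56.5 mean counts). They share 8.5% and 14.9% of their 31-base words with other genes, most with Gm21970. The division of reads among these genes is uncertain.

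Of 17 signalling and sensing genes tested, 6 differed over the stages, against 23.2% of all genes tested. Tmem173 (STING, the adaptor of cytosolic DNA sensing) ran from 48.0 to 54.8 CPM in proestrus, 91.5 to 116 in estrus, 25.9 to 49.5 in metestrus and 13.6 to 18.9 in diestrus, with no overlap of estrus or diestrus with any other stage (F test adjusted p = 2.55e-05). The kinases were not at their highest in estrus. Jak1 was at 132 to 149 CPM in estrus, 161 to 238 in metestrus and 177 to 200 in diestrus, and Jak2 at 66.9 to 73.7 CPM in estrus, 47.1 to 60.2 in metestrus and 78.1 to 91.2 in diestrus. Irf2 and Ikbke, a factor that competes with Irf1 and a kinase of the sensing pathways, had F test adjusted p of 0.0341 and 0.0483. Of 10 negative regulators 1 differed, against the same 23.2%. It was Socs1, the feedback inhibitor of the Jak kinases, and it was lowest in estrus: 7.55 to 19.4 CPM in proestrus, 1.86 to 4.58 in estrus, 4.67 to 10.7 in metestrus and 6.48 to 9.89 in diestrus (edgeR adjusted p = 0.00936 between estrus and proestrus).

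A wider list of 81 other interferon-stimulated genes, 70 of them tested, moved in the same direction. This list too was chosen with earlier results of these data known, so it is no independent check of the genes above. Some of its genes also share sequence with each other or with the genes above, so their counts are not independent. Oas1a shares 68.8% of its 31-base words with other genes, most with Oas1g, and Ifit3b 55.2%, most with Ifit3. Of the 70, 35 differed in the F test, 30 were higher and 0 lower in estrus than in proestrus, and 34 were lower and 0 higher in diestrus than in estrus, against the shares of all genes given above. The median log2 fold changes were 1.02 and -0.84. The 5 with the smallest p were Ifit1bl1, Plac8, Casp4, Sp100 and Ly6a. Of the 70, 7 reached the filter level only with their estrus samples and were bound to be higher there, Ifit1bl1 among them. Ifit1bl1 was at 5.5 to 10.3 CPM in estrus, at or under 0.631 CPM in proestrus and metestrus, and at 0 in diestrus. Plac8 ran from 506 to 672 CPM in estrus and 127 to 165 CPM in proestrus, with metestrus and diestrus at 204 to 444 CPM. Casp4, the inflammatory caspase that binds bacterial lipopolysaccharide, ran from 37.1 to 51.8 CPM in estrus and 6.98 to 25.0 CPM elsewhere.

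Macrophage and monocyte markers moved with the interferon response genes. All 12 were tested, 10 were called in the F test, 11 were higher in estrus than in proestrus and 7 were lower in diestrus than in estrus, against 23.2%, 9.67% and 13.0% of all genes tested, shares that also stand beside the marker counts that follow. Their summed level was 387 to 453 CPM in proestrus, 993 to 1111 in estrus, 557 to 968 in metestrus (highest in replicate 7) and 557 to 767 in diestrus, and of the 12 only Ly6c2 was at 0 in any library (diestrus replicate 5). Diestrus thus lay above proestrus in the marker sum and not in the interferon response genes, whose 40-gene sum was 657 to 889 CPM in proestrus, 1347 to 2035 in estrus, 822 to 1579 in metestrus and 580 to 863 in diestrus. The markers did not move as 1: Cd14, a coreceptor for bacterial lipopolysaccharide, was at 92.2 to 146 CPM in estrus and 13.3 to 27.5 CPM in the other stages, while C1qb, a complement subunit, was at 96.5 to 115 CPM in estrus and 85.5 to 137 CPM in metestrus and diestrus. The part of these cells in the levels of the interferon response genes was not tested. Of the other leukocyte lists, the plasmacytoid dendritic cell markers summed to 13.7 to 19.2 CPM in estrus and 3.42 to 13.5 CPM in the other stages, with 1 of 5 genes tested and 0 called (1 at an unadjusted p under 0.05 in the F test), and the B cell markers reached 271 CPM in estrus replicate 5, of which Jchain held 264 CPM (F test adjusted p = 0.183), against 3.40 to 64.3 CPM in the other 11 uteri. The 1 B cell marker called of 2 tested, Cd79b, was at 5.39 to 11.2 CPM in proestrus, 3.43 to 8.04 in estrus and 0.494 to 2.98 CPM in metestrus and diestrus (F test adjusted p = 0.0154). The neutrophil markers summed to 75.5 CPM in estrus replicate 4, 65.7 in diestrus replicate 5, 50.9 in diestrus replicate 3 and 8.94 to 34.0 CPM in the other 9 uteri, and 1 of 4 tested, S100a9, was called (F test adjusted p = 0.0458). Endothelial markers, of which all 6 were tested, had 0 calls in the F test and 3 at an unadjusted p under 0.05. All 7 epithelial markers were called in the F test, 2 were higher in estrus than in proestrus and 6 lower in diestrus than in estrus, and their sum was 1188 to 1588 CPM in proestrus, 1266 to 1546 in estrus, 589 to 1018 in metestrus and 635 to 766 in diestrus. Of the 6 smooth muscle markers 3 were called in the F test, 2 were higher in estrus than in proestrus and 3 lower in diestrus than in estrus. The part of these lists was likewise not tested.

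**Figure D5:**
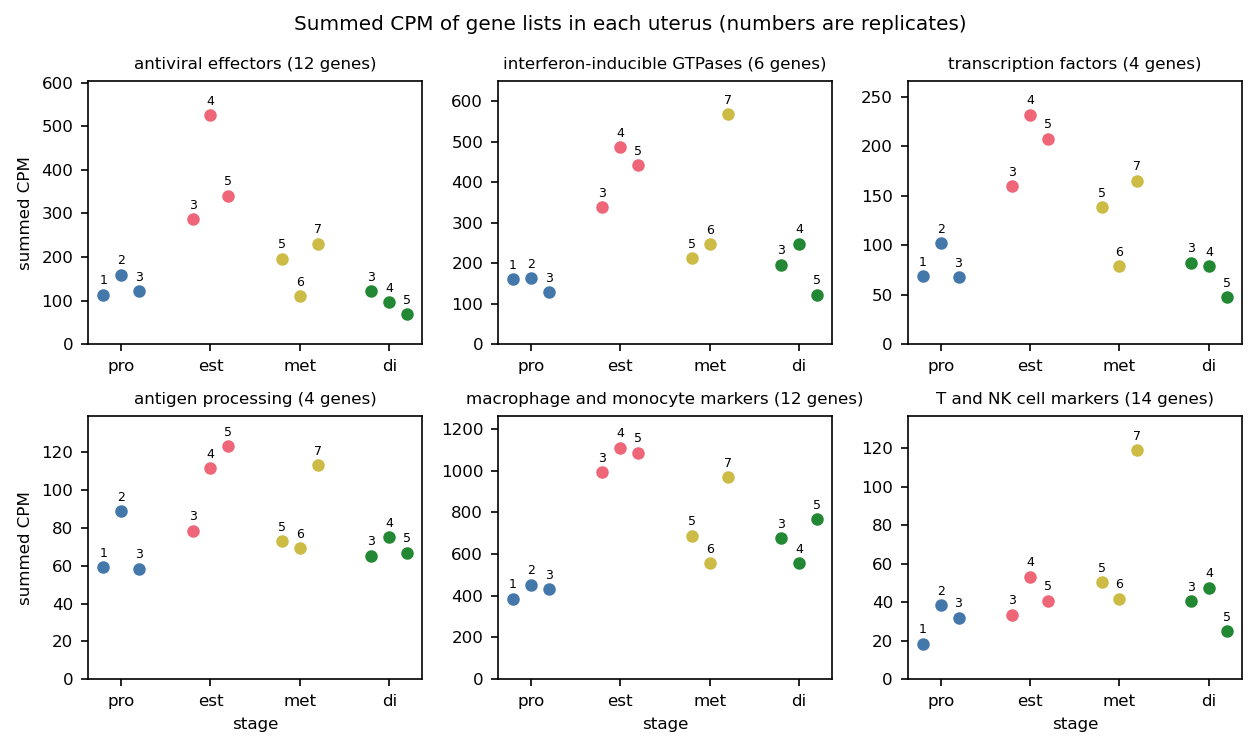
Summed CPM of 4 groups of interferon response genes and 2 lists of cell markers in each uterus, by stage, with the replicate number beside each point and each axis starting at 0. For the antiviral effectors and the macrophage markers the 3 estrus points lie above all others, and metestrus replicate 7 is the highest point for the GTPases and for the T and NK cell markers.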

How the data were processed

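Polyadenylated RNA of 12 whole uteri was profiled by 3' TagSeq with 100 ng of total RNA per library and size selection from 355 to 550 bp, per the labels' protocols, which name no molecular identifiers. The deposited tables, 1 per sample, list 119414 transcripts with length, effective length, estimated counts (named so per the file headers, with sums that differ between samples) and TPM. The deposited TPM values were not used further, since the counts carry the depth. FastQC, kallisto and DESeq2 are named in the submitters' processing notes. The transcript set, genome build, program options and use of strand are not given in the sources used here.

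Transcripts were matched without version to GENCODE M21 (GRCm38), which placed 97.7% of them, 99.7% of these at the same length. The rest held 0.619% to 0.774% of the counts of a sample and entered neither tests nor library sizes. For each gene the estimated counts of its transcripts were added and rounded. In edgeR 4.0.16 (R 4.3.3), filterByExpr by stage kept 12052 genes, TMM factors lay between 0.908 and 1.05, and 1 quasi-likelihood model with a coefficient per stage was fitted to all 12 samples (biological coefficient of variation 20.6%). An F test and 6 two-sided contrasts were each adjusted by Benjamini-Hochberg over all genes tested, with an adjusted p under 0.05 called. Log2 CPM used a prior count of 2. The scripts were tested on simulated data. Total depth ran from 1652841 to 2200563 counts per sample, and limits on undetected genes (3 counts) cover counting error only.

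Members with an adjusted p under 0.05 in any test are named, the 12 with the smallest F test p with the value of every sample, and the others by range. The ligands and receptors with a count are named, and up to 5 genes of each other pathway list. Shared sequence is the percent of a gene's 31-base words found in another gene of GENCODE M21. The genes, their roles and all gene and marker lists were chosen with earlier results of these data known. Alternatives were other scalings, filters on low counts, DESeq2 1.42.0, fits to the 6 samples of 2 stages, a replicate block and leaving out each library. A gene of the signalling list is not reported here.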

Additional observations from a re-analysis of the deposited data

How the results depend on the processing

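Each median log2 fold change of the 35 tested genes was compared with its value in other fits. The limit was the pooled SD, within stages, of the sample averages of log2 CPM given above. The shift was smaller than that for all 72 values without 1 library and all 31 from other fits. Direction was not part of this rule. Over all 56 called differences between 2 stages, the call was kept in 571 of 672 fits without 1 library and lost in 101, and it was kept in 342 of 347 other fits. The F test called 25 genes, with 19 to 29 in the other fits and 17 to 30 without 1 library. Estrus against proestrus gave 26, with 22 to 29 in the other fits and 12 to 29 without 1 library. Diestrus against estrus gave 24, with 18 to 28 in the other fits and 19 to 27 without 1 library. Small counts moved more. With no filter on low counts there were 4 calls between metestrus and estrus (2 as reported), 5 between diestrus and metestrus (0), 2 between proestrus and diestrus (1) and 9 between metestrus and proestrus (3). With DESeq2 there were 3 between diestrus and metestrus and 6 between metestrus and proestrus. Fitted to the 6 samples of the 2 stages alone, metestrus against estrus gave 1 and metestrus against proestrus 0. Without 1 library, the ranges were 1 to 6 for metestrus against estrus, 0 to 5 for diestrus against metestrus, 1 to 2 for proestrus against diestrus and 0 to 12 for metestrus against proestrus. The genes or samples that entered differed between some of these fits, and the cause of the changes was not tested.

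Estrus and diestrus share replicate numbers 3, 4 and 5, but the labels do not say that a number marks a shared animal, day or batch. Deviations of same-numbered samples from their stage means correlated at -0.153, 0.00785 and -0.0273. With 3 uteri per stage, these values cannot decide whether the numbers pair the samples. A fit with a replicate block to these 6 samples gave 28 calls against 26 without the block and 24 as reported, and 24 of the 28 were the reported ones. Estrus replicates 3, 4 and 5 correlated best with diestrus replicates 5, 3 and 3 (0.114, 0.0846 and 0.0543). Of the diestrus samples, replicate 4 alone correlated best with its own number. No paired analysis was possible for the other pairs of stages because they share fewer than 2 replicate numbers. With 3 uteri per stage and counts under 10 in many libraries, small differences of Isg15, Dhx58, Mx1, Bst2 and the ligands were not detectable at this depth.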
